A study of Mus musculus with 3 samples.

Results

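The sites described here are autosomal meiotic hotspots whose H3K4me3 was shared fairly evenly between the homologues while their DMC1 signal came mostly from one of them. They were selected on measured values: an H3K4me3 B6 share of 0.3 to 0.7 together with a DMC1 B6 share under 0.2 (DMC1 on the CAST homologue) or over 0.8 (DMC1 on the B6 homologue), at sites that the authors assigned to the CAST or HUM variant of PRDM9 and that did not overlap a PRDM9-independent H3K4me3 peak. The rule was met by 1291 of the 24586 DMC1 sites in the table, 500 with DMC1 on the B6 homologue and 791 with DMC1 on the CAST homologue. The B6 share of a mark is, per the file headers, the part of its homologue-assigned signal that comes from the B6 chromosome.

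The animals were male (C57BL/6J x CAST/EiJ) F1 hybrids, with 1 homologue of each chromosome from C57BL/6J (B6) and 1 from CAST/EiJ (CAST). Their Prdm9 genotype was HUM/CAST, that is a humanized and a CAST allele. All values came from whole testis. The DMC1 ChIP-seq library came from a male 10 weeks old, and the H3K4me3 ChIP-seq and MNase-seq libraries are labelled as adult male. The series holds 3 libraries, 1 of each kind, and no difference given here has been checked in a second library. The MNase-seq data were not analysed here. The file headers credit the raw H3K4me3 reads to Li and colleagues, and whether those come from the H3K4me3 library listed in the series was not established. Whole testis holds meiotic and other cells, so a signal per site cannot be divided into the number of cells that use the site and the signal per cell.

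In male meiosis, PRDM9 binds a DNA motif through its zinc fingers and trimethylates lysine 4 of histone H3 on the nucleosomes beside it. SPO11 then makes double-strand breaks at some of these places. The broken ends are resected, and the recombinase DMC1 coats the single-stranded DNA and leads the search for the homologue, so DMC1 ChIP-seq reads breaks under repair. A base difference between the homologues within the motif can leave PRDM9 binding mainly 1 of them, and at such sites both marks are known to lean to the bound homologue.

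The table gives 1 line per DMC1 site. Of the selected sites, 2 had their DMC1 centre inside a promoter sequence of the RefSeq tables (GRCm38.p6, the same build as mm10). This was 0.155% of them (exact interval 0.019% to 0.558%). In the comparison sets defined below, the share was 0.220% of sites balanced in both marks and 0.254% of sites one-sided in both marks. The intervals overlapped. The DNA around the DMC1 centres of the 2 selected sites is given here because it is the sequence in hand for the selected sites. The 21 bases around each DMC1 centre are in capitals. The first, chr2:166176393-166176692 on the plus strand, belongs to Gm30320. Its site was of HUM class, with a DMC1 signal of 40.001, a DMC1 B6 share of 0.143 and an H3K4me3 B6 share of 0.393. The second, chr17:83956754-83957053 on the minus strand, belongs to Gm41638. Its site was of CAST class, with a DMC1 signal of 14.7, a DMC1 B6 share of 0.0714 and an H3K4me3 B6 share of 0.516.
Gm30320: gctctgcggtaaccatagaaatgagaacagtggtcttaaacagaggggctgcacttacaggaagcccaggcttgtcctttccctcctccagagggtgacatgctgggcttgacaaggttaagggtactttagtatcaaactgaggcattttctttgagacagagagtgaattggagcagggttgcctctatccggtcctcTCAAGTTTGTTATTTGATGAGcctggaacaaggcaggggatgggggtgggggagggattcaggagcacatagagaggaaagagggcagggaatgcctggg
Gm41638: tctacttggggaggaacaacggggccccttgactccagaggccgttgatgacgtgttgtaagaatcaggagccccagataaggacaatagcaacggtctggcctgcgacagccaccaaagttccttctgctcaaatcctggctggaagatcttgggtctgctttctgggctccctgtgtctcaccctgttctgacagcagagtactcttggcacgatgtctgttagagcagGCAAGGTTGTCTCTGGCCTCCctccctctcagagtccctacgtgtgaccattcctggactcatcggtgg
The letters CCTCCCT, the core of the motif known from human hotspots, were searched on both strands. They stood in the Gm41638 window, starting within the capitals, and not in the Gm30320 window. Of all 32851 promoter windows of 300 bases in the RefSeq table, 15.4% held them. A match is a description of the letters only.

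The background of one-sided DMC1 was counted first. Among 18676 autosomal CAST and HUM sites off independent peaks with a DMC1 share, 42.9% had DMC1 on 1 homologue by the thresholds used here, 18.6% on the CAST and 24.2% on the B6 homologue. Among the 11111 of them with balanced H3K4me3, the rule itself called 11.6%, and nothing is read from that share beyond its size. A further 344 sites with balanced H3K4me3 had no DMC1 share. The other 9820 had a DMC1 share of 0.2 to 0.8, and 1644 of these were outside 0.3 to 0.7. The remaining 8176, balanced in both marks, are one set of sites used for comparison. The other is 2753 sites one-sided in both marks, with an H3K4me3 share under 0.1 or over 0.9 and a one-sided DMC1 share on the same homologue.

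Both PRDM9 variants were represented about equally. There were 660 sites of CAST class, which is 51.1% of the selected sites, against 61.4% of the sites balanced in both marks and 58.3% of the sites one-sided in both marks. Of the sites with balanced H3K4me3, 14.1% were selected in HUM class (631 of 4471, exact Clopper-Pearson 95% interval 13.1% to 15.2%) and 9.94% in CAST class (660 of 6640, 9.23% to 10.7%). These intervals and those below cover counting error over sites only. Over all sites with a DMC1 share, whatever their H3K4me3, DMC1 was one-sided at 47.2% of HUM class and 39.6% of CAST class sites. HUM class was thus also higher without the condition on H3K4me3. In the strongest decile of DMC1 among sites with balanced H3K4me3 the order turned. There 3.08% of HUM class and 5.73% of CAST class sites were selected, with overlapping intervals.

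DMC1 lay on the CAST homologue at 61.3% of the selected sites (95% interval 58.6% to 63.9%), against 34.3% of the sites one-sided in both marks (32.6% to 36.1%). In CAST class the shares were 58.9% at the selected sites and 24.7% at the sites one-sided in both marks. In HUM class they were 63.7% and 47.9%. Sites on the CAST homologue were the larger number on 18 of 19 autosomes, the exception being chromosome 13 with 27 of 56, and chromosome 18 had the most uneven division with 58 of 70. A displacement of DMC1 towards CAST was also present over all sites near an even H3K4me3 share. At sites with an H3K4me3 share of 0.5 to 0.55, selected or not, the median DMC1 B6 share was 0.458, and at 0.45 to 0.5 it was 0.427. The part of this displacement in the division of the selected sites was not tested.

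The one-sidedness of DMC1 was a matter of degree. The share was exactly 0 at 27 sites and exactly 1 at 22 sites, and at the other selected sites both homologues carried some DMC1. On the CAST homologue, 279 of 791 sites had a share of 0.15 to 0.2 and 111 had a share under 0.05. On the B6 homologue, 188 of 500 were as close to the threshold and 82 were in the extreme class. The median share on the homologue with more DMC1 was 0.878, a 7.2-fold excess over the other homologue. These shares are what the rule used.

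The threshold of 0.2 passed between sites of like share. Just inside it were a site in Suclg2, which encodes a subunit of succinyl-CoA ligase, one 407 kb from Prr16 and one 37.7 kb from Cdh3, which encodes P-cadherin, each with a share of 0.199. Just outside it, sites in Rbfox1, Taf3 and Ube2l3 had a share of exactly 0.2. Just inside the threshold of 0.8 were sites in Mindy4 (0.801), 2.82 kb from Krtap5-2 (0.802) and in Spata13 (0.802), and just outside it sites in Sema3e, Notch4 and Immp2l had a share of exactly 0.8.

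**Figure D1:**
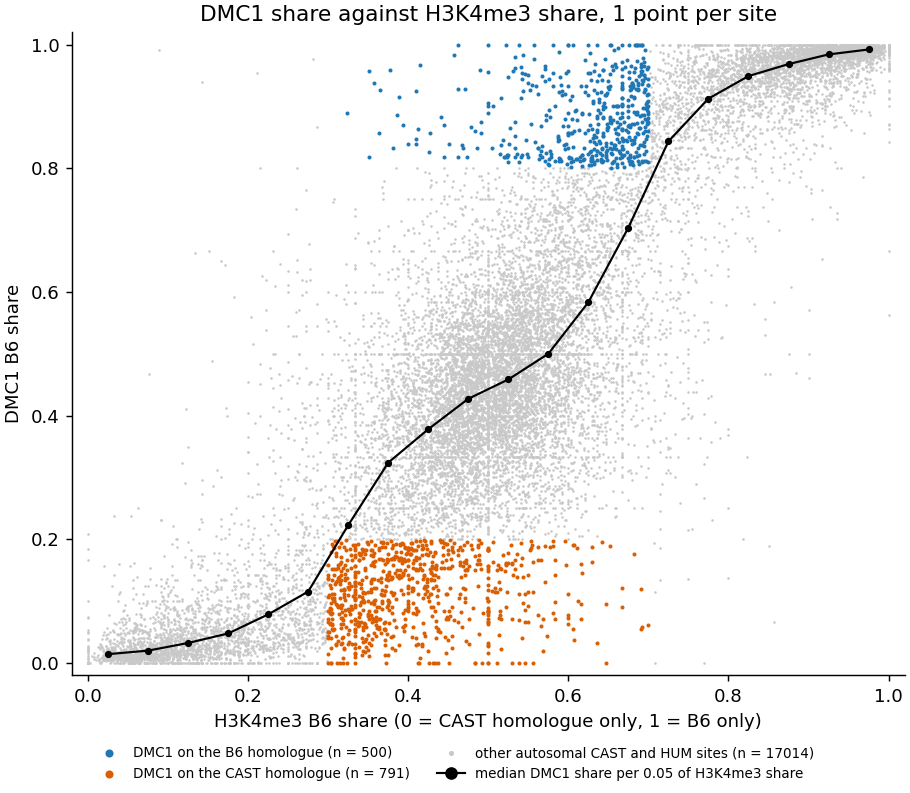
Each point is 1 autosomal site of CAST or HUM class off PRDM9-independent peaks, placed by its H3K4me3 B6 share (x axis) and its DMC1 B6 share (y axis). Blue points (500, DMC1 on the B6 homologue) gather at the right edge of the 0.3 to 0.7 window, orange points (791, DMC1 on the CAST homologue) gather at its left edge, and the black line is the median DMC1 share in steps of 0.05 of H3K4me3 share.

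Although H3K4me3 was balanced by the rule, it was seldom even. It leaned to the same homologue as DMC1 at 1109 of the 1291 sites (85.9%, 95% interval 83.9% to 87.8%), to the other homologue at 147 (11.4%), and was exactly 0.5 at 35. The median H3K4me3 B6 share was 0.643 at sites with DMC1 on the B6 homologue and 0.390 at sites with DMC1 on the CAST homologue, against 0.511 at sites balanced in both marks. The homologue with more DMC1 carried a median of 0.626 of the H3K4me3, or 1.68 times as much as the other homologue, beside the 7.2-fold difference in DMC1. At sites balanced in both marks, the homologue with more DMC1 carried a median of 0.516 of the H3K4me3. How often the marks leaned to the same homologue was not counted in that set. The lean to the same side was most frequent in CAST class sites with DMC1 on the B6 homologue (256 of 271, 94.5%). It was found at 202 of 229 HUM class sites with DMC1 on the B6 homologue (88.2%). With DMC1 on the CAST homologue the 2 classes were level, at 320 of 389 CAST class sites and 331 of 402 HUM class sites (82.3% in each).

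Sites with the opposite lean were weaker. Their median DMC1 signal was 27.2 and their median H3K4me3 signal 6.15, against 45.05 and 8.03 at sites with the same lean, in the authors' units. The 35 sites with an even share had medians of 26.6 and 5.61. HUM class sites with DMC1 on the B6 homologue differed from this. There the 25 sites with the opposite lean had a higher median H3K4me3 than the 202 with the same lean, 9.77 against 7.08. Their median DMC1 was close, at 31.4 against 33.1. In each of the other groups of class and homologue, both medians were lower at the opposite lean.

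Across the window of H3K4me3 share, one-sided DMC1 thinned out quickly from the edges to the centre. At an H3K4me3 share of 0.3 to 0.35, 45.04% of 544 sites were selected (95% interval 40.8% to 49.3%), 244 of them on the CAST homologue and 1 on the B6 homologue. At 0.35 to 0.4 it was 23.9% of 787, and at 0.45 to 0.5 it was 3.94% of 2233 (3.17% to 4.83%). On the other side the share was 4.80% of 2581 at 0.5 to 0.55, 14.1% of 1099 at 0.6 to 0.65 and 32.2% of 718 at 0.65 to 0.7, where 223 were on the B6 homologue and 8 on the CAST homologue. The frequency rose further beyond the window's edges: just outside it, 72.0% of 471 sites at 0.25 to 0.3 and 61.1% of 565 sites at 0.7 to 0.75 had one-sided DMC1. Thus 805 of the 1291 sites had an H3K4me3 share outside 0.4 to 0.6, and 218 were in the centre at 0.45 to 0.55.

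The strength of the DMC1 signal separated the centre from the edges. With DMC1 at 100 or more, 1.03% of 2230 sites in the centre were selected (23 sites, 95% interval 0.655% to 1.54%). With DMC1 at 40 to 100 it was 4.80% of 1251, and with DMC1 under 40 it was 9.85% of 1371 (8.32% to 11.5%). Outside 0.4 to 0.6 the 3 layers were close to each other, with 24.3% of 905 sites at 100 or more, 27.0% of 827 at 40 to 100 and 27.5% of 1317 under 40. In the centre the frequency of one-sided DMC1 therefore differed with signal by more than the counting intervals, and outside 0.4 to 0.6 the intervals of the layers overlapped. The number of reads behind a share is not given for any site, and how far it moves with the frequency in the centre was not tested.

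**Figure D2:**
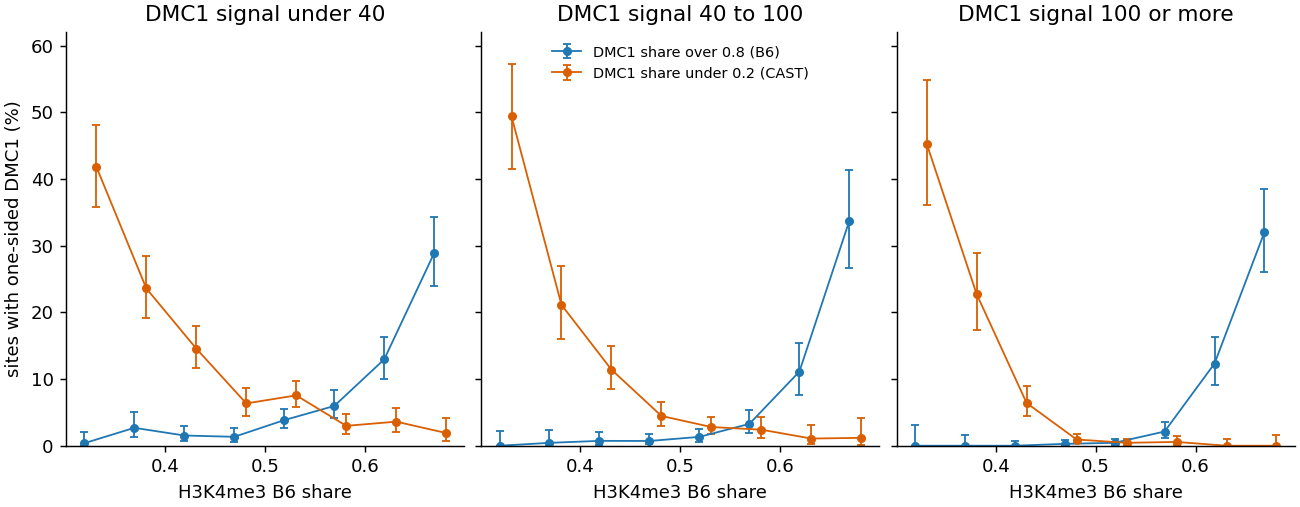
Percent of sites with balanced H3K4me3 whose DMC1 was on the B6 homologue (blue) or the CAST homologue (orange), in steps of 0.05 of H3K4me3 B6 share, for 3 layers of DMC1 signal in the authors' units. Bars are exact 95% binomial intervals. At the edges all layers reach 28.9% or more, and at 0.45 to 0.55 the layer of 100 or more stays under 1% on either side.

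The selected sites were weaker in both marks than sites balanced in both. Their median DMC1 signal was 40.5 (quartiles 22.2 and 90.7), against 81.5 (33.4 and 193) at sites balanced in both marks and 160 (67.6 and 330) at sites one-sided in both marks. Their median H3K4me3 signal was 7.57 (4.31 and 15.02), against 14.99 (8.09 and 26.6) and 13.2 (8.23 and 20.6) in the same 2 sets. Signal strength was not itself a term of the rule, but the rule used shares, and the reads behind a share are not given. Selection was also more frequent at weak sites, at 29.7% in the weakest and 4.77% in the strongest decile of H3K4me3. Signal strength is therefore not taken here as independent of the selection. How far few reads at weak sites gave extreme shares was not tested. The quartile ranges of the selected sites and the sites balanced in both marks overlapped widely, so single sites could not be told apart by strength. Relative to sites balanced in both marks the difference of medians was -1.01 in log2 DMC1 (2.01-fold lower) and -0.99 in log2 H3K4me3 (1.98-fold lower), each with this sign on 19 of 19 autosomes.

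Since both marks were lower by about the same factor, the ratio of DMC1 to H3K4me3 hardly differed. The median log2 ratio of the selected sites was 0.072 above that of sites balanced in both marks, with this sign on 14 of 19 autosomes, and single autosomes ran from -0.25 to 0.67. The sign of this difference turned when the comparison was restricted to stronger H3K4me3 or to a narrower window, and within 20 bins of H3K4me3 signal the selected sites differed by 0.024 in log2 DMC1. Relative to sites one-sided in both marks the median log2 ratio was -0.998 (1.997-fold lower, 19 of 19 autosomes), with -1.98 in log2 DMC1 and -0.80 in log2 H3K4me3. The difference in H3K4me3 from that set changed sign among the stronger sites of either mark.

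Splitting each signal by its B6 share gave the amounts on each homologue. On the homologue with more DMC1, the medians of the selected sites were 36.5 for DMC1 and 4.58 for H3K4me3. On the other homologue they were 4.07 and 3.003. At sites balanced in both marks, the corresponding medians were 47.5 and 7.75 on the homologue with more DMC1, and 33.1 and 7.21 on the other. The log2 ratio of DMC1 to H3K4me3 was thus 3.15 on the high homologue and 0.70 on the low homologue at the selected sites, against 2.73 and 2.33 at sites balanced in both marks. At sites one-sided in both marks it was 3.67 on the homologue with DMC1. The choice of a one-sided DMC1 share fixes the direction of the difference between the homologues, so these values are a description.

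CAST class sites with DMC1 on the B6 homologue stood nearest to the sites balanced in both marks. Their median DMC1 signal was 68.6 and their median H3K4me3 signal 12.7, against 90.9 and 15.5 at CAST class sites balanced in both marks, a log2 difference in DMC1 of -0.41 with this sign on 13 of 19 autosomes. The other 3 groups lay lower. CAST class sites with DMC1 on the CAST homologue had medians of 38.4 and 6.30, with a log2 difference in DMC1 of -1.24 from the same sites (18 of 19 autosomes). HUM class sites had medians of 32.1 and 7.33 with DMC1 on the B6 homologue and 40.1 and 7.39 with DMC1 on the CAST homologue, against 68.0 and 14.2 at HUM class sites balanced in both marks.

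The 218 selected sites in the centre of the window were weaker in both marks than the selected sites as a whole. Their median DMC1 signal was 29.8 and their median H3K4me3 signal 6.92, against 103 and 18.03 at the 4097 sites of the same window balanced in both marks. Their median ratio was lower as well, 4.68 against 6.08.

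**Figure D3:**
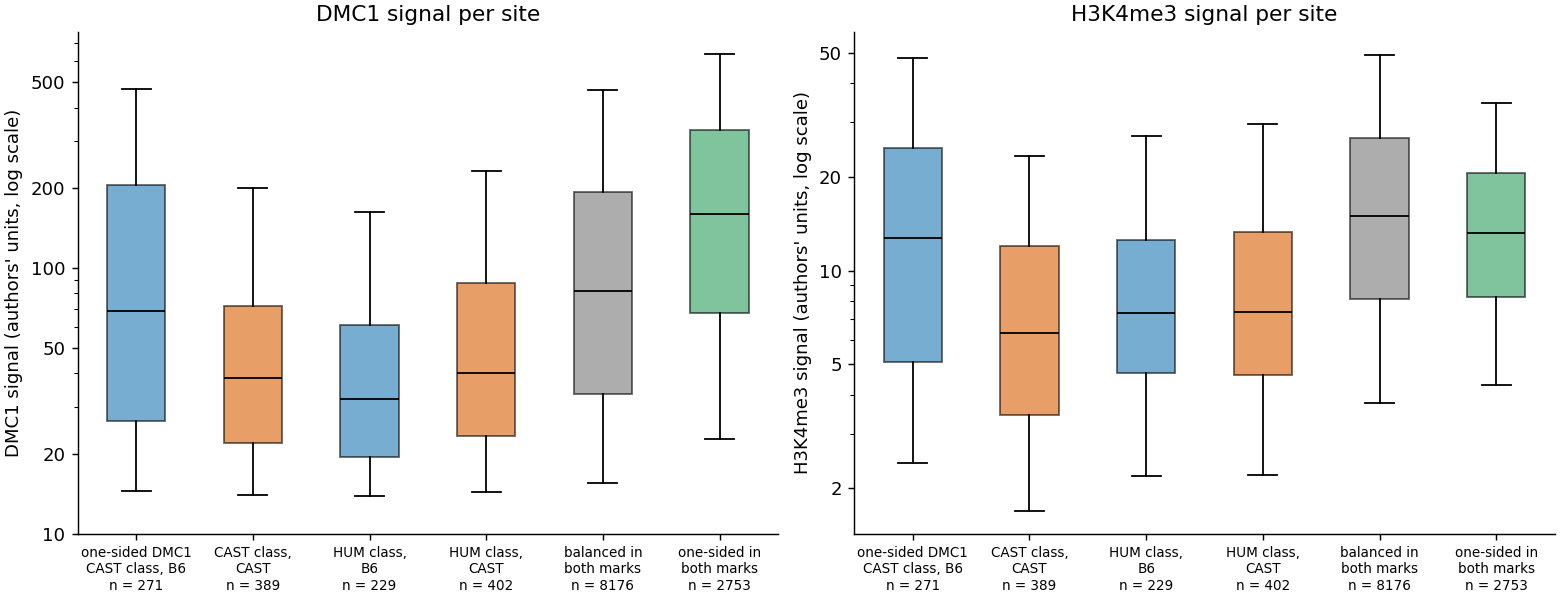
DMC1 signal (left) and H3K4me3 signal (right) per site in the authors' units on log axes, for the 4 combinations of PRDM9 class and homologue with DMC1, then for sites balanced in both marks and sites one-sided in both marks. Boxes span the quartiles with the median as a line, and whiskers reach the 5th and 95th percentiles. CAST class sites with DMC1 on the B6 homologue (median DMC1 68.6) sit above the other 3 groups, whose medians are 32.1 to 40.1.

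Ranked by DMC1 signal, one-sided DMC1 was frequent among weak sites with balanced H3K4me3 and rarer among strong ones. In the weakest decile, 17.8% of 1112 sites were selected (95% interval 15.6% to 20.2%), and in the fifth 13.5%. In the strongest decile it was 4.95% of 1111 (3.75% to 6.40%). Ranked by H3K4me3 signal the share was 29.7% in the weakest decile and 4.77% in the strongest. The 4 groups did not share this course. CAST class sites with DMC1 on the CAST homologue made up 12.1% of the CAST class sites in the weakest decile of DMC1 and 0.891% in the strongest. CAST class sites with DMC1 on the B6 homologue made up 4.68% and 4.83%, and their lowest value was 2.76% in the sixth decile. In HUM class, sites on the CAST homologue made up 9.71% in the weakest and 2.46% in the strongest decile, and sites on the B6 homologue 9.17% and 0.615%. The strongest decile of DMC1 held 38 CAST class sites on the B6 homologue, 7 on the CAST homologue, and 2 and 8 HUM class sites on the B6 and the CAST homologue.

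**Figure D4:**
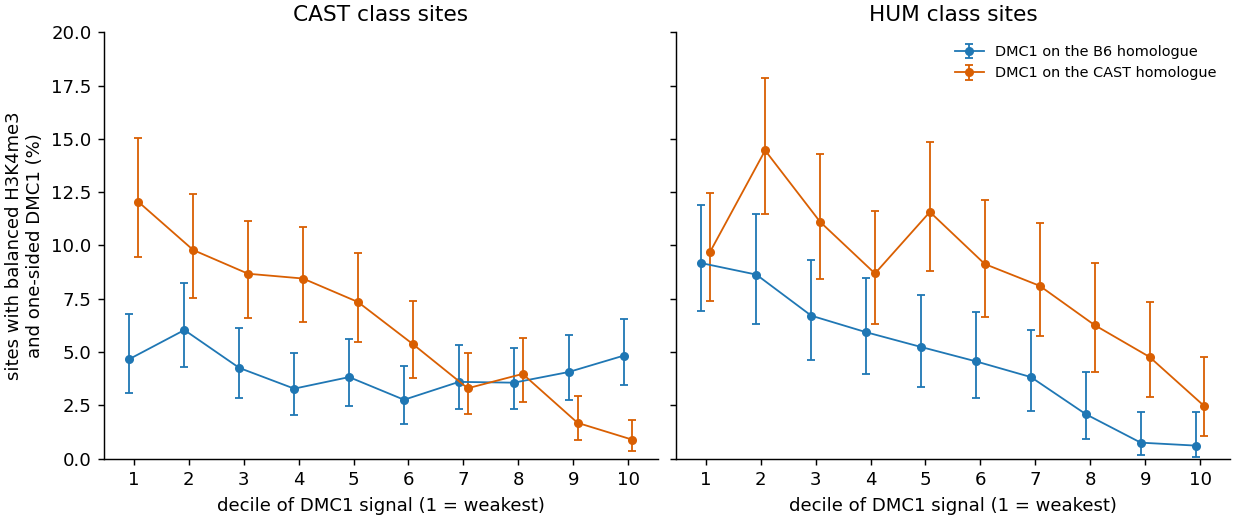
Percent of sites with balanced H3K4me3 that had DMC1 on the B6 homologue (blue) or the CAST homologue (orange), by decile of DMC1 signal, for CAST class (left) and HUM class (right). Bars are exact 95% binomial intervals. The orange line of CAST class comes down to 0.891% in the strongest decile, while the blue line there is at 4.83%.

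The strongest selected site of all lay in Jazf1, which encodes a zinc-finger regulator of transcription (CAST class, chromosome 6, position 52807034, mm10). Its DMC1 signal was 902, with 843 on the B6 homologue and 58.4 on the CAST homologue. Its H3K4me3 signal of 50.7 was divided into 28.1 and 22.6. A DMC1 share of 0.935 thus stood beside an H3K4me3 share of 0.555. A site in Ndst3, an enzyme of heparan sulfate synthesis (chromosome 3, 123637697), had 654 on the B6 and 137 on the CAST homologue in DMC1, and 21.0 and 12.5 in H3K4me3. One in Smg6, the endonuclease of nonsense-mediated mRNA decay (chromosome 11, 75026934), had 646 and 125 in DMC1, and 27.3 and 14.3 in H3K4me3. In Ndst3 and Smg6 the H3K4me3 also leaned to the B6 homologue, with shares of 0.627 and 0.657. The other 2 of the 5 strongest CAST class sites on the B6 homologue, in Pard3b, a relative of the cell polarity gene Pard3, and 4.23 kb from Tgfa, a ligand of the EGF receptor, had DMC1 signals of 734 and 674 and H3K4me3 shares of 0.682 and 0.688.

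With DMC1 on the CAST homologue, the strongest CAST class site lay 77.7 kb from Mbd2, a reader of methylated CpG (chromosome 18, 70706874). Its DMC1 was 135 on the B6 homologue and 693 on the CAST homologue, and its H3K4me3 was 19.004 and 23.9. The next lay 83.9 kb from Nxnl2, a thioredoxin-like gene of the retina (chromosome 13, 51259070), with 104 and 460 in DMC1 and 16.9 and 25.2 in H3K4me3. At both the H3K4me3 leaned to the CAST homologue, with B6 shares of 0.442 and 0.402, beside DMC1 shares of 0.163 and 0.184. Sites in Phlpp1, a phosphatase of AKT, in Fam83b and 33.6 kb from Cdk8, the kinase of the Mediator complex, followed with DMC1 signals of 390, 379 and 378 and H3K4me3 shares of 0.338, 0.396 and 0.320.

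In HUM class the strongest site with DMC1 on the B6 homologue lay in Sox5, an HMG-box transcription factor (chromosome 6, 144277483). It had 472 on the B6 and 107 on the CAST homologue in DMC1, and 24.2 and 13.6 in H3K4me3. The next 4 lay in Adgrb3, an adhesion receptor of the brain, Fbxo11, an F-box protein of a ubiquitin ligase, Igf1r, the receptor of insulin-like growth factor 1, and Spata13. All 5 lay inside genes, and their H3K4me3 shares ran from 0.571 in Igf1r to 0.689 in Adgrb3.

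The strongest HUM class site with DMC1 on the CAST homologue lay in Opn3, an opsin (chromosome 1, 175670097), with 105 on the B6 and 458 on the CAST homologue in DMC1 and 12.5 and 18.4 in H3K4me3. A site 470 kb from Ncam2, a neural cell adhesion molecule (chromosome 16, 80730616), differed from the others in the direction of H3K4me3. It had 73.3 on the B6 and 312 on the CAST homologue in DMC1, but 20.2 on the B6 and 16.2 on the CAST homologue in H3K4me3. The other 3, 3.19 kb from Fam160a1, 179 kb from Adgrl2, a latrophilin, and in Smg1, the kinase that acts on UPF1 in nonsense-mediated decay, had H3K4me3 shares of 0.386, 0.310 and 0.388. These 20 sites were the strongest within each class and homologue, not the 20 strongest of all selected sites. Among them, the one near Ncam2 was the single case in which the marks leaned to different homologues. A CAST class site in Arid1b, outside this set, also had opposite leans, with a DMC1 signal of 543 against 386 near Ncam2.

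Opposite leans at strong sites were looked at separately, and the 5 strongest were chosen after their values were seen. The first lay in Arid1b, a subunit of the SWI/SNF chromatin remodeller (CAST class, chromosome 17, 5056059), with a DMC1 signal of 543 and a DMC1 share of 0.837 beside an H3K4me3 signal of 90.0 and an H3K4me3 share of 0.467. The site near Ncam2 came next. A CAST class site 18.3 kb from Hacd2, an enzyme of very long chain fatty acid synthesis, had a DMC1 signal of 378 and shares of 0.167 in DMC1 and 0.566 in H3K4me3. The other 2, HUM class sites in Itga6, an integrin subunit, and in Bpifb3, had DMC1 signals of 324 and 192. Their DMC1 shares were 0.158 and 0.857, beside H3K4me3 shares of 0.522 and 0.490.

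The 6 strongest of the 35 sites with an exactly even H3K4me3 share were taken among sites with DMC1 at or above the median of the selected sites, so their strength was set by the choice. The first lay in Fyco1, an adaptor that links autophagosomes to kinesin (CAST class, chromosome 9, 123836470). Its DMC1 was 133 on the B6 and 6.22 on the CAST homologue, with an H3K4me3 of 1.47 on each. One in Itgb3, the integrin beta 3 of platelets (HUM class, chromosome 11, 104619507), had 15.8 on the B6 and 69.4 on the CAST homologue in DMC1 and 5.81 on each in H3K4me3. A site 122 kb from Sash1 (HUM class, chromosome 10, 9067821) had the most extreme division, 1.27 on the B6 and 76.2 on the CAST homologue in DMC1, with 1.70 on each in H3K4me3. In 5 of the 6, the exception being Itgb3, the H3K4me3 signal was low, from 2.95 in Fyco1 to 8.24 at a site 89.8 kb from Cdc42ep3, against a median of 11.6 over all autosomal sites. The other 2, 75.004 kb from Fbxo33 and in Gpc5, a glypican, had DMC1 signals of 71.4 and 65.4 on mainly the CAST homologue. Of the 6, DMC1 was on the B6 homologue in Fyco1 only.

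The selected sites lay inside protein-coding genes less often than sites balanced in both marks. The share was 48.6% (627 of 1291, 95% interval 45.8% to 51.3%), against 56.4% of sites balanced in both marks (55.4% to 57.5%) and 54.0% of sites one-sided in both marks (52.1% to 55.9%). The difference from the sites balanced in both marks was found in CAST class, with 43.6% of 660 sites against 54.98% of 5016, and was smaller in HUM class, with 53.7% of 631 against 58.7% of 3160 and overlapping intervals. Position was not used by the rule. Within layers of DMC1 signal, the selected sites were below the balanced ones in each. The shares were 48.7% against 54.0% under 40, 47.3% against 54.5% at 40 to 100, and 49.7% against 59.3% at 100 or more. The sites one-sided in both marks had 47.2%, 52.7% and 56.0% in the same layers. Under 40 the selected sites were therefore not below the sites one-sided in both marks. Between selected and balanced sites of both classes together, the intervals overlapped in the 2 weaker layers. At 100 or more they were apart (43.8% to 55.5% against 57.6% to 60.9%). In CAST class alone they were apart in each layer, with 35.8% to 47.3% against 48.2% to 53.5% under 40. In HUM class alone they overlapped in each layer. The annotation gave gene starts and ends without exons, so exon and intron were not separated.

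Of 20661 autosomal protein-coding genes, 572 held a selected site, 37 of them exactly 2 and 10 of them 3 or more. The 10 are named here because they held the most. The long gene Lrmda on chromosome 14 held 4, all with DMC1 on the B6 homologue. They were among 10 sites with balanced H3K4me3, beside 11.6% selected of all such sites. Of the 9 genes with 3, DMC1 was on the CAST homologue at all 3 sites in Asic2, an acid-sensing ion channel, Auts2, Nrg1, a ligand of ErbB receptors, Tenm2, a teneurin, and Zfp407, and on the B6 homologue at all 3 in Camkmt, a methyltransferase of calmodulin. In Arid1b, Gpc5 and Spata13 the homologues were mixed. Over all selected sites, DMC1 was on the CAST homologue at 61.3%. Asic2, Auts2, Nrg1 and Tenm2 are each 1084 kb long or longer, and their selected sites were among 9 to 18 sites with balanced H3K4me3. By autosome, the share of sites with balanced H3K4me3 that were selected ran from 9.47% on chromosome 6 to 15.3% on chromosome 14.

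Of 32 genes of meiotic recombination looked up, all were matched, and 3 selected sites lay in or within 5 kb of them among 15 sites with balanced H3K4me3, beside 11.6% of all such sites. The 3 sites were in Ankrd31, a partner of REC114 in break formation, Spata22, a partner of MEIOB on single-stranded DNA, and Mnd1, whose product acts with HOP2 to stimulate DMC1. Their DMC1 signals were weak, at 29.6, 25.8 and 31.6. The site in Spata22 was on the B6 homologue, with a DMC1 share of 0.815, and those in Ankrd31 and Mnd1 were on the CAST homologue, with shares of 0.0649 and 0.174.

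Close neighbours tended to lie on the same homologue. Where the nearest site with a DMC1 share was within 2 kb, 22 of 28 were one-sided on the same homologue as the selected site, 5 had a share of 0.2 to 0.8 and 1 was on the other homologue. At 2 to 5 kb it was 46 of 104 on the same homologue (44.2%, 95% interval 34.5% to 54.3%) and 17 on the other. At 5 to 50 kb the numbers were nearly level, with 178 of 746 on the same homologue (23.9%, 20.8% to 27.1%) and 160 on the other, and beyond 50 kb they were 102 and 97 of 413. The sites one-sided in both marks had the same course, with 23 of 41 within 2 kb, 30.7% of 189 at 2 to 5 kb and 24.0% of 1575 at 5 to 50 kb on the same homologue. Sites this close can share reads, and the part of shared reads was not tested. Another site within 5 kb was found at 10.3% of the selected sites, against 9.48% of the sites balanced in both marks and 8.75% of the sites one-sided in both marks. Within 2 kb the shares were 2.17%, 1.22% and 1.53% in the same order. In CAST class another site within 2 kb was found at 2.88% of the selected sites (19 of 660, 1.74% to 4.46%), against 1.26% of the sites balanced in both marks (63 of 5016, 0.966% to 1.60%), so that the intervals were apart. In HUM class the shares were 1.43% and 1.17%, and the intervals overlapped.

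**Figure D5:**
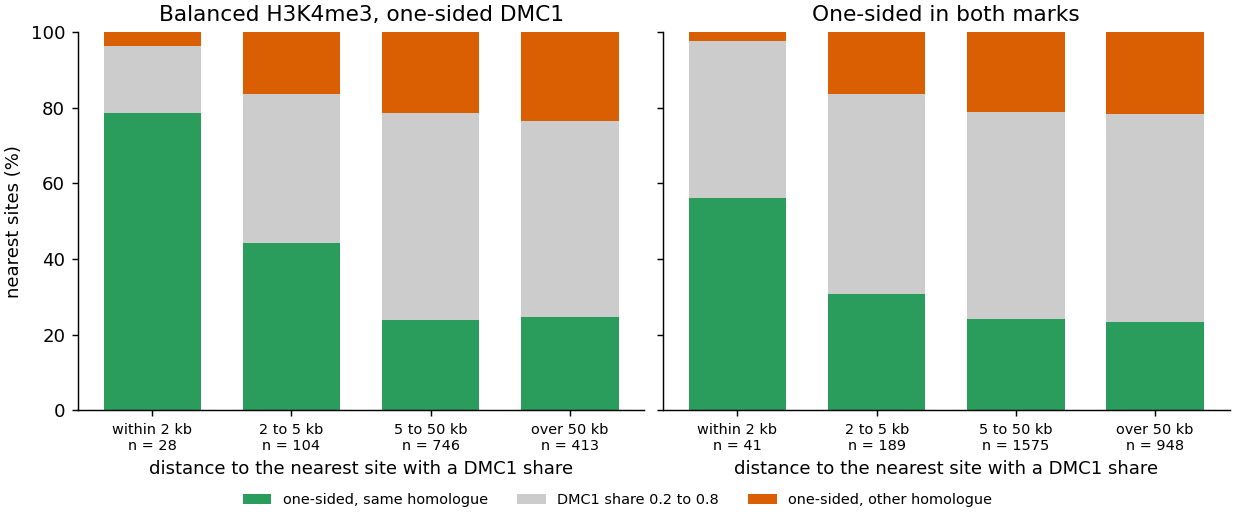
Nearest site with a DMC1 share, by distance, for the selected sites (left) and for sites one-sided in both marks (right). Green is the percent of neighbours one-sided on the same homologue, grey the percent with a DMC1 share of 0.2 to 0.8, and orange the percent one-sided on the other homologue. On the left, green is 78.6% within 2 kb, 44.2% at 2 to 5 kb and 23.9% at 5 to 50 kb.

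There were 7 pairs of selected sites within 5 kb of each other. In 6 pairs both sites had DMC1 on the CAST homologue, and in 1, on chromosome 8, the homologues differed. The strongest pair, 3.47 kb apart and 83.9 kb from Nxnl2 on chromosome 13, joined a CAST class site with DMC1 564 and a HUM class site with DMC1 26.9, with DMC1 shares of 0.184 and 0.0755. The next, 0.786 kb apart and 101 kb from Tnks, which encodes tankyrase, on chromosome 8, joined 2 HUM class sites with DMC1 96.6 and 327, whose DMC1 shares were 0.138 and 0.134 and whose H3K4me3 shares were both 0.374. The third, 3.78 kb apart in Zfp407, a zinc-finger gene on chromosome 18, joined a HUM class site with DMC1 31.3 and a CAST class site with DMC1 154, with DMC1 shares of 0.145 and 0.0680. In Zfp407 the H3K4me3 shares lay on opposite sides of even, at 0.618 and 0.356.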

How the data were processed

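The members and gene lists were chosen with earlier results of these data known. DMC1 and H3K4me3 signals per site are the authors' intensity estimates as deposited, inferred by their peak callers per the file headers, with no statement of scaling to depth. The B6 shares are fractions deposited by the authors, signal on B6 over signal on both homologues per the file headers, and the reads behind them are not given, so the depth per site is unknown. The build was mm10 and the aligner BWA (0.7.15 for H3K4me3), per the submitters' processing notes.

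From these values, medians and differences of medians on the log2 scale were computed (no pseudocount, since neither mark held a 0). Exact Clopper-Pearson intervals and direction over 19 autosomes were computed as well, with pandas 2.3.3 and scipy 1.17.1. On simulated data, only the number of selected sites and the difference of medians in log2 DMC1 were tested. No p-value was computed, since there is 1 library per assay and sites are not replicates. Protein-coding genes came from RefSeq (GRCm38.p6). Sites were named by fixed rules: the 5 strongest of each class and homologue, the 6 nearest to an even H3K4me3 share among sites with DMC1 at or above the median, the 3 strongest pairs within 5 kb and the 3 nearest each threshold on either side. A planned motif search around members needs the genome sequence, which was not used here.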

Additional observations from a re-analysis of the deposited data

How the results depend on the processing

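Of 106 recomputed values, 64 stayed within the tolerance, 36 moved beyond it and 6 changed sign. The number of selected sites was 484 with DMC1 shares under 0.1 or over 0.9, 486 with H3K4me3 shares of 0.4 to 0.6, 466 with DMC1 and 440 with H3K4me3 at or above the autosomal median, by construction. With the stricter DMC1 shares, log2 H3K4me3 differed by -1.43 from sites balanced in both marks and by -1.28 from sites one-sided in both, 48.1% were of CAST class and 77.3% had a repeated H3K4me3 value. With H3K4me3 shares of 0.4 to 0.6, the differences from balanced sites were -1.46 in log2 DMC1, -1.27 in log2 H3K4me3 and -0.11 in the log2 ratio, which changed sign. DMC1 was then on the CAST homologue at 71.0%, and 8.44% had a site within 5 kb.

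With DMC1 at or above the median, log2 DMC1 differed by -0.42 from balanced and -0.84 from one-sided sites. Log2 H3K4me3 differed by -0.45 and, with its sign changed, 0.11, and the log2 ratio differed from one-sided sites by -0.67. CAST class made up 56.4%, the CAST homologue 57.5% and repeated values 59.7%. With H3K4me3 at or above the median, log2 DMC1 differed by -0.39 and -1.28, log2 H3K4me3 by -0.27 and, with its sign changed, 0.029, and the log2 ratio by -0.15, with its sign changed, and -1.30. CAST class made up 55.5%, the CAST homologue 52.3%, repeated values 52.5%, sites with a neighbour within 5 kb 8.64% and sites in genes 45.7%.

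Within 20 bins of H3K4me3 the log2 DMC1 difference from balanced sites was 0.024, with its sign changed. In HUM class alone the difference from one-sided sites was -1.43. Neighbours were found at 2.17% within 2 kb and 22.6% within 10 kb, and 54.8% lay in genes with 5 kb flanks. An alternative chosen after seeing the data, H3K4me3 shares of 0.45 to 0.55, gave -1.79 in log2 DMC1, -1.38 in log2 H3K4me3 and -0.38 in the log2 ratio, with its sign changed, against balanced sites. Against one-sided sites it gave -2.42 in log2 DMC1 and -1.38 in the log2 ratio. Apart from the settings' own construction, the cause of each change was not tested.

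Each assay has 1 library, so no replicate was left out. No paired analysis was possible because there are no replicates to pair. The reads behind each share are unknown, so no share of a single site has an error.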

Other observations

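Sites that the rule left out held the same combination of marks. Among CAST and HUM sites on PRDM9-independent H3K4me3 peaks with an H3K4me3 share of 0.3 to 0.7, 29.1% of 1107 had one-sided DMC1 (95% interval 26.4% to 31.9%), 160 on the B6 and 162 on the CAST homologue, against the 11.6% off such peaks. There the combination was also frequent at an H3K4me3 share of 0.45 to 0.55, with 19.1% of 514. Their median H3K4me3 signal was 24.7 and their median DMC1 signal 47.6. Sites of class UNK, which the headers do not define, had one-sided DMC1 at 25.4% of 639 off independent peaks and at 37.9% of 240 on them.

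The reverse combination was counted as well. Of 8503 autosomal CAST and HUM sites off independent peaks with a DMC1 share of 0.3 to 0.7, 37 had an H3K4me3 share under 0.2 or over 0.8, which is 0.435% (0.307% to 0.599%), 23 with H3K4me3 on the B6 homologue and 14 on the CAST homologue. Their median DMC1 signal was 30.4. The share of all sites with H3K4me3 this one-sided was not counted. The 0.435% therefore has no background beside it, and it is not set against the 11.6% of the selected combination.

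The H3K4me3 value of 72.3% of the selected sites stood at another site of the table as well, beside 15450 of all 24586 sites. This was so for 58.1% of sites balanced in both marks and 64.5% of sites one-sided in both marks. Among selected sites with H3K4me3 at or above the autosomal median it was 52.5%. Value and share together repeated at 9 selected sites, none of them at an adjacent site.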
